A study of Larimichthys polyactis and Larimichthys crocea with 36 samples.

Results

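Liver of the hybrid LPC was compared with liver of its parental species, small yellow croaker (Larimichthys polyactis, LP) and large yellow croaker (Larimichthys crocea, LC). The LPC libraries carry only the genus as organism, both parental groups are pure species, and no treatment, age, sex or stock is given for any group in the labels used here. LPC is 1 of 2 reciprocal hybrids in a series on growth-related heterosis, which holds 36 libraries of brain, liver and muscle. The labels do not say which species was the mother of LPC, nor that each of the 3 libraries per group was a different fish. The p-values therefore reflect only library-to-library spread, part of which may be technical. The members are the 9 liver libraries, 3 each of LPC, LP and LC, and the gene identifiers (IDs) with an FPKM (fragment density per transcript length, scaled to the library's total) of at least 1 in at least 3 of them. This left 12383 of the 24212 IDs in the table, 11200 with an EVM name and 1183 with a BGI_novel name. The table pairs no ID with a gene name, so roles are not given and no liver marker was checked by name.

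Heterosis is the departure of a hybrid from what its parents would predict. A transcript is called additive when its level in the hybrid equals the mean of the parents (the mid-parent), dominant when it matches 1 parent, and transgressive when it lies outside both. In bony fishes the liver makes most plasma proteins and lipoproteins, stores fat and glycogen, and releases insulin-like growth factor in answer to growth hormone, which is why it is a tissue of interest for growth. Bulk tissue was sequenced, so fewer cells of a type and less RNA per cell cannot be told apart in any value given here.

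LPC libraries formed a group of their own, apart from both parents. On the first principal component of log2(FPKM + 1), with 37.4% of the variance, LPC lay between -17.1 and -5.67, LP between -52.7 and -43.8 and LC between 52.2 and 63.5. The second, with 22.4%, set LPC at 35.7 to 50.4 apart from LP at -39.7 to -23.6 and LC at -38.5 to 5.78. LC 2, at 5.78, was the parental library nearest to LPC on that component. The median Spearman correlation across IDs was 0.81 between LPC and LP libraries, 0.79 between LPC and LC and 0.74 between LP and LC, against 0.88 within LPC, 0.89 within LP and 0.85 within LC. All 3 groups resembled liver of the other hybrid, LCP, with median correlations of 0.913, 0.897 and 0.893 for LPC, LP and LC, against at most 0.659 with its muscle and 0.540 with its brain. The correlations with LCP were taken over all 24212 IDs in the table, those before them over the 12383 tested. Values of the first kind can therefore not be set against values of the second. Fragment totals are unknown, because FPKM keeps no depth.

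**Figure D1:**
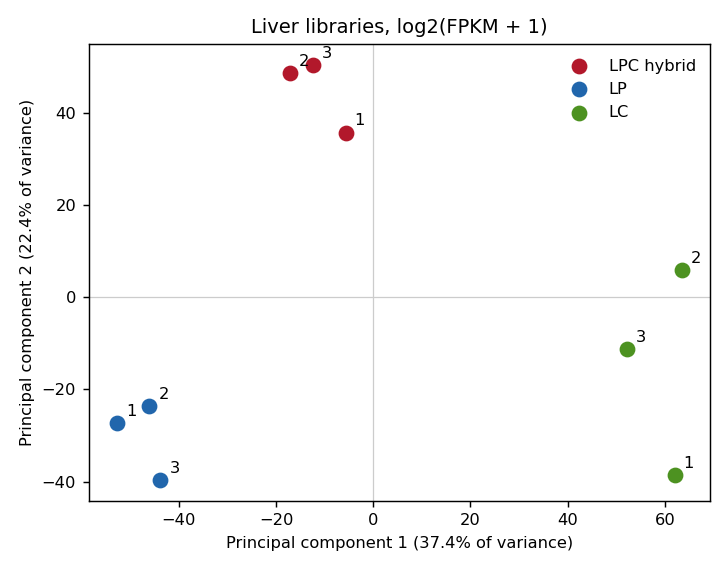
Principal components of the 9 liver libraries over 12383 IDs on log2(FPKM + 1), first component (37.4% of variance) across and second (22.4%) upward, with replicate numbers beside the points. LPC lies between LP and LC on the first component and above both on the second, where LC 2 is the nearest parental library.

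The counts of IDs higher and lower in LPC are given as deposited and after scaling, since their balance differed between both. LPC median-ratio size factors, which measure how high the bulk of IDs stands in a library, were 0.853 to 0.936, against 0.986 to 1.10 in LP and 0.981 to 1.17 in LC, with no overlap between LPC and the parents. The median log2 difference over all IDs was -0.17 for LPC minus LP and -0.19 for LPC minus LC as deposited, and 0.00 and -0.01 after dividing by the size factors. LPC had 10342 to 11343 IDs at an FPKM of at least 1, LP 11195 to 11701 and LC 10936 to 11839. Differences below are log2 differences of FPKM + 1, which understate changes of low values. Calls are limma tests with Benjamini-Hochberg adjustment over all 12383 IDs, at an adjusted p under 0.05.

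Against LP, limma called 537 IDs in LPC liver (4.34% of those tested), 172 higher (1.39%) and 365 lower (2.95%). After median-ratio scaling 457 were called (3.69%), 229 higher (1.85%) and 228 lower (1.84%), so the excess of lower IDs was lost. IDs called in the same direction on both scales numbered 172 higher and 228 lower. With a difference of at least 2-fold, 166 were higher and 324 lower as deposited. The count of higher IDs became 96 without LPC 2, 82 without LPC 3, 95 without LP 2, 73 without LP 3 and 262 without LC 2. The count of lower IDs became 144 without LPC 1, 110 without LPC 2, 86 without LPC 3, 204 without LP 1, 187 without LP 2 and 105 without LP 3. Leaving out a library also leaves its group with fewer. Here and below, a smaller count or a lost call therefore need not rest on that library.

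The IDs furthest above LP were ones that LC liver carried and LP liver almost lacked. evm.model.Chr1.997 had 176, 1183 and 483 FPKM in the LPC libraries, against 0.52, 0.50 and 0.34 in LP and 28.2, 3056 and 42.2 in LC. LPC and LP did not overlap, while LPC lay within the range of LC, in which LC 2 stood far above the other two. The difference from LP was 8.33 (SE 1.52, limma adjusted p = 0.0203), and the call was lost without LPC 2 (adjusted p = 0.0723), LPC 3 (0.0730), LP 1 (0.0545), LP 2 (0.0571) or LP 3 (0.0730). BGI_novel_G000454 had 525, 84.5 and 553 FPKM in LPC and 361, 648 and 674 in LC, while all LP libraries list it at 0 (limma adjusted p = 0.000474 against LP). BGI_novel_G002818 had 95.4, 131 and 141 FPKM in LPC, was at 0 in LP, and had 401, 165 and 200 in LC (limma adjusted p = 2.76e-05 against LP). Every LPC library of BGI_novel_G002818 stood below every LC library, although the test did not separate LPC from LC (difference -0.97, SE 0.33, limma adjusted p = 0.112). BGI_novel_G000772 was uneven, at 57.9, 632 and 9.44 FPKM in LPC, listed at 0 in LP, and at 479, 39.6 and 457 in LC. Its call against LP (limma adjusted p = 0.0406) was lost without LPC 1 (0.0861), LPC 2 (0.0797), LP 1 (0.0959), LP 2 (0.0955), LP 3 (0.119) or LC 1 (0.0504), without the filter on low values (0.0883) and in the fit on 12 liver libraries (0.0650). Without LP 1, LP 2 or LP 3 the difference stayed at 6.19, and only the SE rose, from 1.38 to at most 1.65.

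The IDs furthest below LP fell into those near 0 in LC as well and those present in both parents. BGI_novel_G000248 was listed at 0, 0 and 0.22 FPKM in LPC, against 22.8, 52.4 and 60.3 in LP and 0 in all LC libraries. The LPC libraries stood with LC and apart from LP (difference from LP -5.32, SE 0.32, limma adjusted p = 0.000152). Outside the liver LPC carried this ID, with a mean of 3.66 FPKM in LPC muscle and 11.2 in LPC brain, against 21.2 and 39.7 in LP muscle and brain. BGI_novel_G000253 was listed at 0, 0 and 6.32 FPKM in LPC, 40.8, 46.4 and 82.3 in LP and 0 in LC (difference from LP -4.82, SE 0.68, limma adjusted p = 0.00855). BGI_novel_G001591 had 0, 1.86 and 0 FPKM in LPC, 14.1, 30.9 and 65.4 in LP and 0.03, 0.17 and 0.47 in LC (difference from LP -4.48, SE 0.55, limma adjusted p = 0.00494). In each of the 3, LPC carried little or none of a transcript that LP liver had. BGI_novel_G000569 differed from them, since LC carried it too: 10.04, 0 and 0 FPKM in LPC, 32.9, 53.7 and 107 in LP and 41.1, 10.9 and 76.5 in LC. Its difference from LP was -4.71 (SE 0.99, limma adjusted p = 0.0332), lost without LPC 2 (0.104), LPC 3 (0.112), LP 1 (0.0594), LP 2 (0.0830) or LP 3 (0.117), or without the filter (0.0723).

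Against LC, limma called 895 IDs (7.23%), 281 higher (2.27%) and 614 lower (4.96%) in LPC. After median-ratio scaling 736 were called (5.94%) and the balance turned, with 402 higher (3.25%) and 334 lower (2.7%). Called in the same direction on both scales were 281 higher and 334 lower IDs. At 2-fold or more, 256 were higher and 483 lower as deposited. The count of higher IDs became 127 without LPC 2, 153 without LPC 3 and 133 without LC 1, and the count of lower IDs 304 without LPC 1, 174 without LPC 2, 219 without LPC 3 and 184 without LC 1. No test compared the number of IDs called against LC with the number called against LP, and both use the same LPC libraries.

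The IDs furthest above LC were transcripts of LP liver that LC liver lacked or nearly lacked. BGI_novel_G002270 had 1444, 2587 and 1542 FPKM in LPC, 1326, 707 and 845 in LP and 0.09, 0.21 and 0 in LC. All LPC libraries stood above all LP libraries, but only the difference from LC was called (10.68, SE 0.32, limma adjusted p = 6.79e-07; difference from LP 0.95, SE 0.32, limma adjusted p = 0.127). BGI_novel_G000372 had 495, 2680 and 1473 FPKM in LPC and 534, 129 and 867 in LP, while every LC library lists it at 0 (limma adjusted p = 0.000168 against LC). BGI_novel_G000364 had 212, 280 and 428 FPKM in LPC, 89.0, 24.1 and 169 in LP and 0, 0 and 1.70 in LC (difference from LC 7.73, SE 0.67, limma adjusted p = 0.000493). The groups LPC and LP did not overlap for this ID, yet the difference from LP was not called (2.02, SE 0.67, limma adjusted p = 0.126). evm.model.Chr16.191 had 730, 589 and 224 FPKM in LPC, 833, 5771 and 2763 in LP and 0, 0.22 and 13.0 in LC (difference from LC 7.48, SE 1.04, limma adjusted p = 0.00567). Every LPC library of it stood below every LP library, without a call (difference -2.37, SE 1.04, limma adjusted p = 0.224). evm.model.Chr16.192 had 3285, 347 and 4201 FPKM in LPC, 290, 7234 and 9739 in LP and 2.38, 76.1 and 4 in LC (difference from LC 7.27, SE 1.61, limma adjusted p = 0.0304). The spread of evm.model.Chr16.192 was more than 10-fold within LPC and within LP, and its call was lost without LPC 1 (0.0820), LPC 3 (0.0985), LC 1 (0.111) or LC 3 (0.0660), or without the filter (0.0703).

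Below LC, the 5 named IDs of largest difference included evm.model.Chr11.367 and evm.model.Chr15.515, which both parents carried and which are described with the IDs below both. The other 3 were IDs of LC liver that LP liver carried little of or none. BGI_novel_G000280 was listed at 0 in all LPC and all LP libraries, against 91.4, 78.3 and 35.5 FPKM in LC (limma adjusted p = 2.70e-05 against LC). evm.model.Chr9.461.2 had 0.24, 1.62 and 2.6 FPKM in LPC, 0.43, 0 and 0.24 in LP and 155, 62.0 and 65.7 in LC (difference from LC -5.26, SE 0.45, limma adjusted p = 0.000471). In BGI_novel_G000280 and evm.model.Chr9.461.2 LPC carried almost nothing of what LC liver had. BGI_novel_G000770 had 45.3, 0.42 and 2.05 FPKM in LPC, 0.29, 0 and 16.3 in LP and 1555, 242 and 2163 in LC. LPC and LC did not overlap, but the call (difference -7.32, SE 1.48, limma adjusted p = 0.0219) was lost without LPC 2 (0.0802), LPC 3 (0.0770), LC 1 (0.0813) or LC 3 (0.0521), or without the filter on low values (0.0538).

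**Figure D2:**
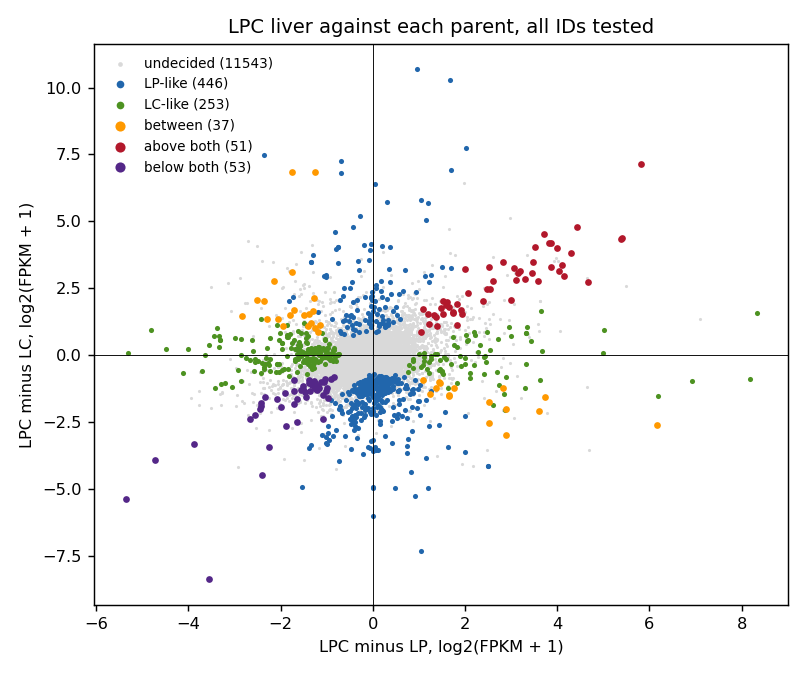
Difference of LPC from LP (across) and from LC (upward) for all 12383 IDs on log2(FPKM + 1), coloured by class with the number of IDs in each. IDs above both parents lie to the upper right (51) and those below both to the lower left (53), while LP-like IDs spread along the vertical axis and LC-like IDs along the horizontal one.

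Classes were built from the calls of LPC against each parent and of LC against LP. LC and LP themselves differed in 1505 IDs (12.2%), 788 higher (6.36%) and 717 lower (5.79%) in LC, and in 1490 (12%) after median-ratio scaling, 771 higher (6.23%) and 719 lower (5.81%). That count became 990 without LP 1, 850 without LP 2 and 900 without LP 3. Of the 1505, LPC was called against LC only in 446 (29.6%, LP-like), against LP only in 253 (16.8%, LC-like), against both and between them in 37 (2.46%) and against neither in 765 (50.8%). In 4 more, LPC lay below both. A missing call does not show that LPC equals a parent. After median-ratio scaling there were 386 LP-like, 236 LC-like and 29 between IDs, of which 335, 198 and 26 were in the same class as before.

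IDs in which LPC was like the lower parent outnumbered those in which it was like the higher one, by a margin that shrank with scaling and was not tested. As deposited, 498 IDs were like the lower parent (321 LP-like with LC higher and 177 LC-like with LP higher) and 201 like the higher parent (125 LP-like with LP higher and 76 LC-like with LC higher). After scaling the numbers were 351 and 271. BGI_novel IDs were 9.55% of all IDs tested, 23.1% of LP-like, 35.2% of LC-like and 59.5% of between IDs. These classes hold only IDs called between LC and LP, so the share over all IDs is not their base. Of the IDs called there, BGI_novel IDs were 170 of 788 higher in LC and 203 of 717 lower. They were 103 of 446 LP-like, 89 of 253 LC-like and 22 of 37 between IDs. Between LC and LP, 31.5% of 1183 BGI_novel IDs were called, against 10.1% of 11200 EVM IDs, and between LPC and the mid-parent 6.42%, against 2.31%. What sets BGI_novel IDs apart in the table was not tested.

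Of the IDs between the parents, those named here were picked for the largest difference between LC and LP. That choice favours IDs with 1 species at or near 0, which was the case in all but 1 of them. The remaining IDs between the parents were not examined for this. BGI_novel_G001511 had 66.2, 90.7 and 74.7 FPKM in LPC, 0.25, 0 and 0 in LP and 485, 640 and 340 in LC. None of the groups overlapped, and LPC differed from LP by 6.17 (SE 0.28, limma adjusted p = 2.76e-05) and from LC by -2.61 (SE 0.28, limma adjusted p = 0.00147). BGI_novel_G002820 had 93.5, 199 and 118 FPKM in LPC, 762, 326 and 344 in LP and 0, 0 and 0.52 in LC. BGI_novel_G000453 had 87.9, 164 and 104 FPKM in LPC, 334, 203 and 308 in LP, with 0 listed for LC. Both stood below LP without overlap as deposited (limma adjusted p = 0.0458 for BGI_novel_G002820 and 0.0468 for BGI_novel_G000453), and neither difference from LP was called after scaling (0.0672 and 0.0721). evm.model.Chr23.828 had 13.8, 11.9 and 8.28 FPKM in LPC, was listed at 0 in LP, and had 88.7, 76.1 and 18.02 in LC (limma adjusted p = 0.0441 against LC, 0.0603 after scaling). The exception, BGI_novel_G002305, was present in all, at 25.3, 19.3 and 31.0 FPKM in LPC, 3.36, 1.55 and 2.79 in LP and 193, 185 and 234 in LC. It lay close to the middle on the log2 scale, 2.89 above LP (SE 0.28, limma adjusted p = 0.0016) and -2.98 from LC (SE 0.28, limma adjusted p = 0.000692).

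LPC lay above both parents in 51 IDs (0.412%) and below both in 53 (0.428%). In 100 of these 104 IDs limma made no call between LC and LP. After median-ratio scaling 71 were above (0.573%) and 19 below (0.153%), and all 51 and the same 19 were in the lists as deposited. The smaller of the folds against each parent had a median of 5.77 among the IDs above both and of 2.32 among those below both. Without regard to any test, all 3 LPC libraries stood above all 6 parental libraries in 247 IDs (1.99%) and below all in 971 (7.84%), and in 508 (4.10%) and 402 (3.25%) after scaling. The count above both became 27 without LPC 2, 30 without LPC 3, 25 without LP 3 and 90 without LC 2. The count below both became 13, 6 and 9 without LPC 1, 2 and 3, became 25, 20 and 11 without LP 1, 2 and 3, and was 11 without LC 1 and 116 without LC 2.

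The 8 IDs furthest above both parents, among those called on both scales, without overlap and with a group mean of at least 5 FPKM, were led by evm.model.Chr16.193. It had 713, 214 and 1107 FPKM in LPC, against 6.58, 4.12 and 23.7 in LP and 0.48, 0.25 and 30.5 in LC. Every LPC library stood above every parental one. LPC exceeded LP by 5.81 (SE 1.2, limma adjusted p = 0.0311), LC by 7.16 (SE 1.2, limma adjusted p = 0.0113) and the mid-parent by 6.49 (SE 1.04, limma adjusted p = 0.016, but 0.0596 without LPC 1 and 0.0740 without LPC 3). evm.model.Chr7.1059 had 41.4, 42.1 and 68.7 FPKM in LPC, 7.09, 0.44 and 0.08 in LP and 0.17, 0.31 and 2.93 in LC. It was 4.61 above the mid-parent (SE 0.64, limma adjusted p = 0.0102, but 0.0509 without LPC 3). evm.model.Chr9.61 had 117, 96.9 and 155 FPKM in LPC, 9.04, 0.83 and 0.32 in LP and 3.13, 3.24 and 10.4 in LC, 4.89 above the mid-parent (SE 0.61, limma adjusted p = 0.00745). In both of these LP 1 was the LP library nearest to LPC.

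evm.model.Chr2.486 was the most abundant of this group after evm.model.Chr16.193, with 541, 428 and 560 FPKM in LPC, 56.4, 7.55 and 2.71 in LP and 9.37, 34.2 and 40.6 in LC. It was 4.87 above the mid-parent (SE 0.78, limma adjusted p = 0.016, but 0.0588, 0.0696 and 0.0671 without LPC 1, 2 and 3). evm.model.Chr16.797 had 63.0, 63.2 and 140 FPKM in LPC, 19.6, 2.87 and 1.36 in LP and 1.70, 3.56 and 6.42 in LC, 4.04 above the mid-parent (SE 0.65, limma adjusted p = 0.016, but 0.0628 without LPC 2 and 0.0728 without LPC 3). evm.model.Chr15.450 had 125, 149 and 120 FPKM in LPC, 30.6, 4.52 and 3.59 in LP and 3.82, 7.31 and 8.05 in LC, 4.02 above the mid-parent (SE 0.56, limma adjusted p = 0.0102, but 0.0550 without LPC 2). The same LP library, LP 1, was again the highest of LP in all 3. Over the 51 IDs above both, LP 1 was the LP library nearest to LPC in 40, LP 2 in 4 and LP 3 in 7, and without LP 1 the count above both was 45. evm.model.Chr7.580 had 32.5, 32.0 and 148 FPKM in LPC, 4.04, 1.25 and 0.91 in LP and 1.90, 1.96 and 5.67 in LC, 4.06 above the mid-parent (SE 0.55, limma adjusted p = 0.0102). BGI_novel_G000307 was listed at 0 in all 6 parental libraries and had 6.68, 20.7 and 23.8 FPKM in LPC (limma adjusted p = 0.0016 against LP and 0.000774 against LC). In brain, 1 LPC library listed it at 63.63 FPKM and the other two at 0, against 0 in LP brain and at most 0.74 in LC brain.

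**Figure D3:**
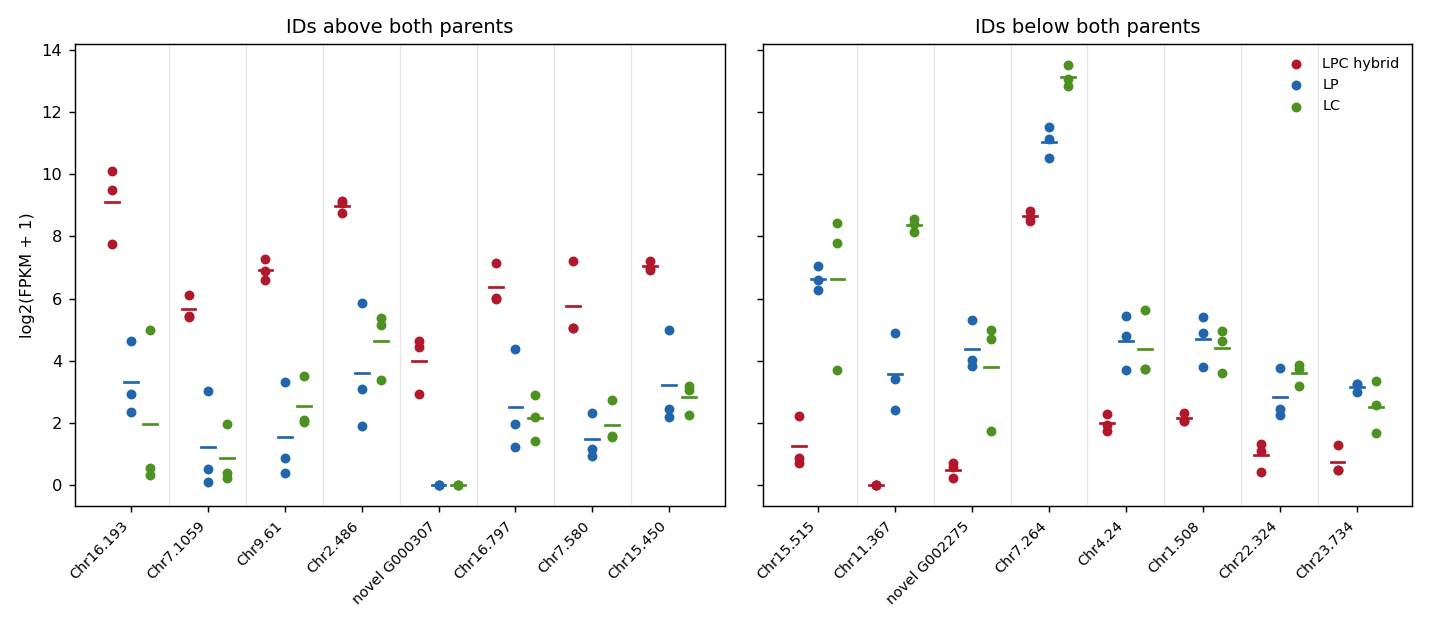
log2(FPKM + 1) per library (points) and group mean (lines) for the 8 IDs furthest above both parents (left) and the 8 furthest below both (right), with LPC left of LP and LC for each ID. Names are shown without "evm.model." or "BGI_". LPC points lie above every parental point on the left and below every one on the right, and evm.model.Chr11.367 and BGI_novel_G000307 show a group listed at 0.

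Among the 8 IDs furthest below both parents by the same rule, 1 was abundant in both species. evm.model.Chr7.264 had 452, 394 and 358 FPKM in LPC, 2226, 1457 and 2924 in LP and 11692, 8554 and 7345 in LC. The groups did not overlap, and all 3 pairs differed: LPC from LP by -2.40 (SE 0.29, limma adjusted p = 0.00481), LPC from LC by -4.49 (SE 0.29, limma adjusted p = 9.22e-05) and LC from LP by 2.09 (SE 0.29, limma adjusted p = 0.0027). In LPC liver evm.model.Chr11.367 was at 0 in every library, against 4.28, 9.55 and 28.5 FPKM in LP and 338, 284 and 377 in LC (limma adjusted p = 0.00955 against LP and 5.79e-05 against LC). The same ID was well expressed in the other tissues of LPC, with a mean of 53.5 FPKM in muscle against 39.2 in LP and 33.4 in LC, and of 552 in brain against 539 in LP and 543 in LC.

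evm.model.Chr15.515 had 3.64, 0.84 and 0.64 FPKM in LPC, 94.9, 76.4 and 131 in LP and 344, 11.9 and 222 in LC. LPC did not overlap either parent, though LC 2 was far below the other LC libraries. It lay -5.37 from the mid-parent (SE 0.91, limma adjusted p = 0.0198, but 0.0925, 0.0854 and 0.0509 without LPC 2, LPC 3 and LP 3, and 0.0554 without the filter). Its calls against LP (limma adjusted p = 0.0264) and LC (0.0203) were both lost without LPC 2 (0.0836 and 0.0715) or LPC 3 (0.0925 and 0.0709). The call against LP was also lost without LP 1 (0.0684), LP 2 (0.0624), LP 3 (0.0950) or the filter (0.0615). That against LC was also lost without LC 1 (0.0666). BGI_novel_G002275 had 0.49, 0.64 and 0.16 FPKM in LPC, 13.4, 15.2 and 38.5 in LP and 30.7, 2.32 and 25.3 in LC, -3.60 from the mid-parent (SE 0.67, limma adjusted p = 0.0271, but 0.0800, 0.0995, 0.108 and 0.0593 without LPC 1, LPC 2, LPC 3 and LP 3, and 0.0699 without the filter). LC 2 was the LC library nearest to LPC for both, as it was in 27 of the 53 IDs below both, against 4 for LC 1 and 22 for LC 3. evm.model.Chr4.24 had 2.32, 2.84 and 3.89 FPKM in LPC, 11.9, 26.9 and 42.5 in LP and 48.1, 12.4 and 12.3 in LC. evm.model.Chr1.508 had 3.16, 3.21 and 3.98 FPKM in LPC, 12.9, 29.0 and 41.8 in LP and 24.1, 11.1 and 30.0 in LC. LPC libraries of both lay close together, below the lowest parental library. Against the mid-parent evm.model.Chr4.24 differed by -2.52 (SE 0.49, limma adjusted p = 0.0325) and evm.model.Chr1.508 by -2.41 (SE 0.39, limma adjusted p = 0.017). Both calls were lost without LPC 1 (0.102 for evm.model.Chr4.24, 0.0608 for evm.model.Chr1.508), LPC 2 (0.124 and 0.0817) or LPC 3 (0.0934 and 0.0629), and that of evm.model.Chr4.24 also without LP 2 (0.0649), LP 3 (0.0647) or the filter (0.0783).

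evm.model.Chr22.324 and evm.model.Chr23.734 were low in all groups. evm.model.Chr22.324 had 0.34, 1.52 and 1.16 FPKM in LPC, 12.7, 3.82 and 4.41 in LP and 12.2, 13.6 and 8.09 in LC, -2.25 from the mid-parent (SE 0.36, limma adjusted p = 0.0161, but 0.0608, 0.0550 and 0.0578 without LPC 1, 2 and 3). evm.model.Chr23.734 had 0.40, 0.39 and 1.46 FPKM in LPC, 8.49, 8.53 and 7.05 in LP and 9.09, 4.95 and 2.20 in LC, -2.10 from the mid-parent (SE 0.34, limma adjusted p = 0.0173, but 0.0642 without LPC 1 and 0.0894 without LPC 2). LPC stood below every parental library in both. At these levels the log2(FPKM + 1) scale understates the difference most.

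Liver of the reciprocal hybrid LCP is set beside these 16 IDs without a test, since it would be compared with the same LP and LC libraries. Of the IDs above both parents, LCP liver had 11.6 to 54.1 FPKM of evm.model.Chr7.1059, 29.9 to 73.4 of evm.model.Chr9.61 and 134 to 327 of evm.model.Chr2.486. It had 22.5 to 53.7 FPKM of evm.model.Chr16.797, 11 to 61.0 of evm.model.Chr7.580, 23.2 to 97.8 of evm.model.Chr15.450 and 2.04 to 6.86 of BGI_novel_G000307. These LCP ranges lay above the parental ranges given above, save that the lowest LCP library of evm.model.Chr15.450 was below LP 1. evm.model.Chr16.193 differed from them, with 3.57 to 15.01 FPKM in LCP, within the range of the parents. Of the IDs below both, LCP liver had 397 to 1151 FPKM of evm.model.Chr7.264, 0.22 to 2.62 of evm.model.Chr15.515 and 0 to 0.78 of evm.model.Chr11.367. It had 2.6 to 3.56 FPKM of evm.model.Chr4.24, 0.85 to 6.55 of evm.model.Chr1.508 and 0.13 to 1.34 of evm.model.Chr23.734, all below both parents. The LCP range of BGI_novel_G002275, 0.17 to 5.78, overlapped LC, and that of evm.model.Chr22.324, 1.30 to 6.37, overlapped LP.

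Liver-enriched IDs (a mean of at least 5 FPKM in the 12 liver libraries and at least 10 times that of brain and of muscle) made up 11 of the 51 above both (21.6%) and 10 of the 53 below both (18.9%), against 5.69% of all IDs. The LPC libraries helped to choose that list, so an ID high in LPC liver alone could enter it, and these shares are no evidence on the tissue of the IDs. With the list chosen without LPC liver they were 6 of 51 (11.8%) and 11 of 53 (20.8%), against 5.64% of all IDs. With the list chosen from LP and LC liver only they were 3 of 51 (5.88%) and 12 of 53 (22.6%), against 5.96%. The last list has the opposite leaning, since IDs high in the parents entered it. Above both, the group means of LPC ranged up to 89895 FPKM with a median of 25.9, and 10 IDs had at least 100. Below both, the median of the LPC means was 3.96, against 22.4 in LP and 19.5 in LC. BGI_novel IDs made up 10 of the 51 (19.6%) and 8 of the 53 (15.1%).

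The mid-parent sums both comparisons into 1. Against the average of both parental log2 means, limma called 335 IDs (2.71%), 137 higher (1.11%) and 198 lower (1.6%) in LPC. After scaling 339 were called (2.74%) and the balance turned, with 215 higher (1.74%) and 124 lower (1%), and 137 and 124 were called in the same direction on both. At 2-fold or more, 124 were higher and 162 lower as deposited. The count of higher IDs became 87 without LPC 1, 46 without LPC 2, 58 without LPC 3, 83 without LP 3 and 247 without LC 2. The count of lower IDs became 48 without LPC 1, 21 without LPC 2, 36 without LPC 3, 88 without LP 3, 104 without LC 1 and 492 without LC 2.

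Which scale the mid-parent is taken on changed which IDs departed from it. The linear mid-parent was log2 of the average of both parental log2 means turned back to FPKM + 1. Its tests used the limma variance with a delta-method error. Against it, 100 were higher (0.808%) and 308 lower (2.49%), or 157 (1.27%) and 166 (1.34%) after scaling. Of the 137 higher on the log2 scale, 98 were also higher on the linear one, and 51 of the 137 were IDs in which LC and LP differed, against 18 of the 100. BGI_novel_G001511, with the FPKM given above, changed sides: LPC lay 1.78 above the log2 mid-parent (SE 0.24, limma adjusted p = 0.0102) and -1.61 from the linear one (limma adjusted p = 0.0208). BGI_novel_G002305 lay -0.05 from the log2 mid-parent (SE 0.24, limma adjusted p = 0.923) and -2.01 from the linear one (limma adjusted p = 0.00916). BGI_novel_G000372, with LC listed at 0, was called above the log2 mid-parent and not above the linear one (limma adjusted p = 0.00366 and 0.0764). BGI_novel_G002270 was called above both, by 5.81 (SE 0.28, limma adjusted p = 4.73e-05) and by 1.95 (limma adjusted p = 0.0163). The IDs named above or below both parents kept their side and their call on either scale.

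evm.model.Chr4.25, called below the mid-parent, had 3.93, 13.6 and 11.4 FPKM in LPC, 43.9, 89.2 and 95.5 in LP and 532, 50.4 and 194.8 in LC. All LPC libraries stood below all parental ones, and limma separated LPC from LC (-4.19, SE 0.78, adjusted p = 0.0162) but not from LP (-2.93, SE 0.78, adjusted p = 0.0673). Its call against the mid-parent (-3.56, SE 0.67, limma adjusted p = 0.0287) was lost without LPC 1 (0.0985), LPC 2 (0.0851), LPC 3 (0.0888), LP 2 (0.0572) or LP 3 (0.0658), or without the filter (0.0714). BGI_novel_G000569, with 2 LPC libraries listed at 0, lay -4.32 from the mid-parent (SE 0.86, limma adjusted p = 0.0344) and lost that call without LPC 2 (0.147), LPC 3 (0.137), LP 2 (0.0642), LP 3 (0.0731) or LC 1 (0.0752), or without the filter (0.0836). BGI_novel_G000364 lay 4.87 above it (SE 0.58, limma adjusted p = 0.007) and kept its call without any 1 of the 9 libraries.

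Over the 1505 IDs that differed between LC and LP, LPC lay slightly on the LP side of the middle. With the LP mean at -1 and the LC mean at 1, the median place was -0.143, -0.188 and -0.136 in the 3 LPC libraries, a mean of -0.156 ± 0.0284 (SD, n = 3). It was -0.127 ± 0.0394 (SD, n = 3) after median-ratio scaling. No test was run on it. The mean became -0.0573 without LP 1, -0.0434 without LP 2, -0.0453 without LC 1, -0.276 without LC 2 and -0.274 without LC 3, with the sign kept throughout. As deposited, this place differed with which parent was higher, at -0.430 ± 0.0430 (SD, n = 3) over IDs higher in LC and 0.150 ± 0.0520 (SD, n = 3) over IDs higher in LP, so that LPC stood on the side of the lower parent in both. After scaling these were -0.170 ± 0.0764 and -0.0726 ± 0.0815 (SD, n = 3 each), and the second included 1 LPC library on the other side of the middle.

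**Figure D4:**
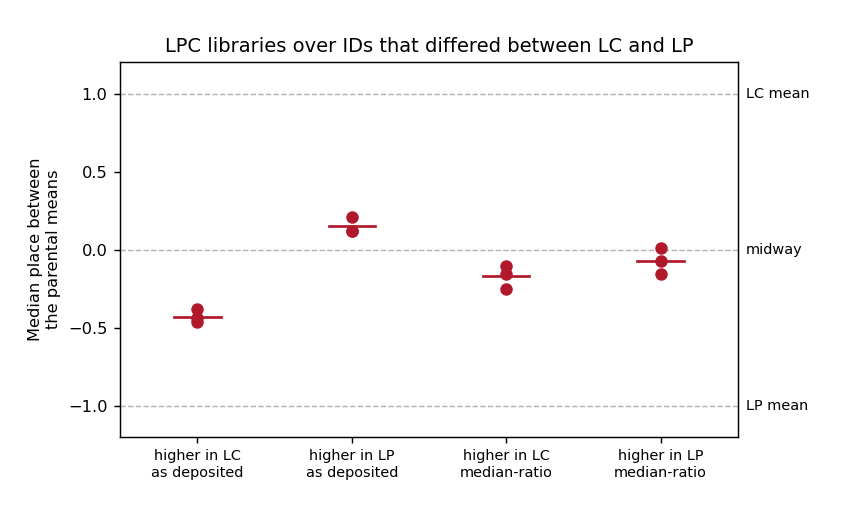
Median place of each LPC library (points) between the LP mean (-1) and the LC mean (1) over IDs that differed between LC and LP, split by the parent with the higher level, as deposited and after median-ratio scaling, with lines at the means. As deposited the points lie near -0.430 for IDs higher in LC and near 0.150 for IDs higher in LP, and after scaling both sets lie closer to the middle.

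IDs found in brain or muscle of 1 species only were chosen in these tissues. They had under 0.1 FPKM in all 6 brain and muscle libraries of 1 species. In the other species they had at least 1 FPKM in all 3 brain or all 3 muscle libraries. Liver values took no part in the choice, so some were present in liver of both species. LC liver was under 0.1 FPKM throughout in 44 of 50 LP IDs, and LP liver in 57 of 69 LC IDs. Liver means of that other species reached 1 FPKM in 1 and 3 of these IDs. Of 50 such LP IDs, the mean in LPC liver reached 1 FPKM in 7 and the mean in LP liver in 21. The LPC mean was above the LP mean in 12, below it in 28, and both were listed at 0 in 10. Of 69 such LC IDs, the LPC mean reached 1 FPKM in 12 and the LC mean in 21. The LPC mean was above the LC mean in 11, below it in 44, and both were listed at 0 in 14. In both lists LPC liver thus carried fewer of these IDs at 1 FPKM than the liver of the carrying parent, without a test. Most members are low in liver, and 42 of the 50 and 43 of the 69 are BGI_novel IDs. BGI_novel_G002270 and BGI_novel_G000248, described above, are both among the LP IDs and lie far apart, the first above LP in all LPC libraries and the second near 0 in LPC.

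A few abundant IDs took a large share of the FPKM sum in LPC liver. The 10 most abundant IDs of each library held 45.5% ± 3.63 in LPC libraries, 41.4% ± 5.68 in LP libraries and 31.3% ± 2.07 in LC libraries (SD, n = 3 each). LPC against the 6 parental libraries did not pass the exact 2-sided permutation test (difference 9.07 percentage points, p = 0.0714, adjusted p = 0.0714). Liver-enriched IDs, 714 in all, together held 68.8%, 69.2% and 67.8% in the LPC libraries, against 61.3%, 64.9% and 55.8% in LP and 53.2%, 56.1% and 53.6% in LC. Every LPC library stood above all 6 parental ones, by 11.1 percentage points on average (exact 2-sided permutation p = 0.0119, the smallest that 3 against 6 libraries allow, adjusted p = 0.0238 over 2 measures). The tests against 6 libraries pool LP and LC, species whose shares themselves differed (means of 60.7% and 54.3% here). They therefore do not measure LPC against either parent. The other share tests given below were not adjusted. Against LP alone and against LC alone the exact permutation p was 0.1, the smallest that 3 against 3 allow. LPC liver values entered the choice of the 714 IDs, so that test partly rests on the values that chose its list. With the list chosen without LPC liver, 707 IDs, the difference was 10.6 percentage points (exact permutation p = 0.0119). That list still used LCP liver, and no share was taken with a list from LP and LC liver only.

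The difference in the share of liver-enriched IDs was taken again without some of the most abundant IDs. The mean that ranked those IDs included the LPC libraries. evm.model.Chr16.833 and evm.model.Chr20.749 were picked from the 10 IDs of highest mean FPKM for the largest excess of share in LPC over the parents. Leaving them out thus had to lower the difference. Without them the liver-enriched IDs held 55.0% ± 3.87 in LPC libraries, 55.5% ± 4.69 in LP libraries and 48.1% ± 3.58 in LC libraries (SD, n = 3 each). The difference from the parents was then 3.26 percentage points (exact permutation p = 0.464, after that choice). Without all 10 of those IDs, each of them liver-enriched, the list held 23.8%, 20.6% and 26.97%, and the difference was -0.00132 (exact permutation p = 0.988). That value pools opposite differences, 3.20 percentage points from LP (exact permutation p = 0.5) and -3.20 from LC (exact permutation p = 0.4). With all 714 liver-enriched IDs the differences were 7.94 from LP and 14.3 from LC. Brain-enriched IDs held 0.309% to 0.371% of the sum in LPC, 0.381% to 0.415% in LP and 0.409% to 0.510% in LC. Muscle-enriched IDs held 0.0392% to 0.0548% in LPC, 0.0541% to 0.0585% in LP and 0.0494% to 0.0698% in LC. The ranges of LPC lay below those of both parents for brain-enriched IDs. The bulk of all IDs also stood lower in LPC, with size factors of 0.853 to 0.936, against 0.986 to 1.10 in LP and 0.981 to 1.17 in LC. Whether brain-enriched IDs were lower than that bulk was not tested. Other tissues were not measured, and the part of any of them in the results was not tested.

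**Figure D5:**
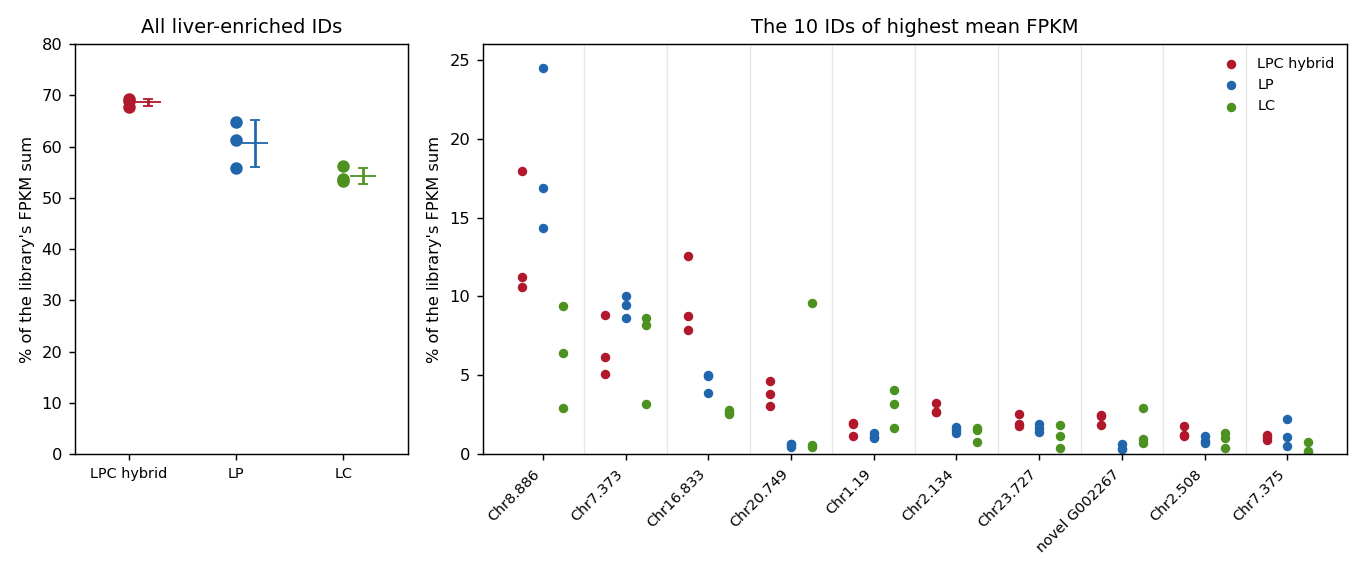
Percentage of each library's FPKM sum in all 714 liver-enriched IDs (left, with means and SD) and in each of the 10 IDs of highest mean FPKM (right), with points for libraries and LPC left of LP and LC. LPC stands above all parental libraries on the left and for evm.model.Chr16.833 on the right, and LC 2 stands alone at the top for evm.model.Chr20.749.

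Of the 10 most abundant IDs, 1 was called above both parents. evm.model.Chr16.833 had 79192, 67491 and 123004 FPKM in LPC, 34432, 43813 and 46033 in LP and 26788, 26297 and 25869 in LC. The groups did not overlap, and LPC exceeded LP by 1.08 (SE 0.22, limma adjusted p = 0.0312), LC by 1.72 (SE 0.22, limma adjusted p = 0.00405) and the mid-parent by 1.40 (SE 0.19, limma adjusted p = 0.0102). The last call was lost with quantile normalization (limma adjusted p = 0.128), which gives all libraries the same values at each rank, and without the filter on low values (0.148). evm.model.Chr20.749 had 27588, 32799 and 45124 FPKM in LPC, 4104, 5473 and 5802 in LP and 4233, 98787 and 5773 in LC. LC 2 held more of it than any other library, and the other 5 parental libraries held less than any LPC library. The difference from the mid-parent was not called (2.06, SE 0.84, limma adjusted p = 0.191), and was called without LC 2 (limma adjusted p = 0.0011).

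BGI_novel_G002267 had the same shape, with 16602, 20607 and 24130 FPKM in LPC, 5962, 2948 and 3148 in LP and 9308, 30427 and 6826 in LC. LPC exceeded LP by 2.41 (SE 0.51, limma adjusted p = 0.0348), and the mid-parent by 1.55 without a call (SE 0.44, limma adjusted p = 0.0911, but 0.0108 without LC 2 and 0.0480 in the fit on 12 liver libraries). evm.model.Chr2.134 had 24197, 28093 and 26066 FPKM in LPC, 15455, 13586 and 12691 in LP and 7180, 17085 and 14916 in LC. Each LPC library was above each parental one, 1.001 above the mid-parent (SE 0.26), at a limma adjusted p of 0.0708 that fell under the threshold without LC 1 (0.0436) or LC 2 (0.0301). The limma adjusted p was also lower with the filter at 5 FPKM (0.0458) and in the fit on 12 liver libraries (0.0346). The most abundant ID, evm.model.Chr8.886, had 162704, 91108 and 109873 FPKM in LPC, 150018, 214412 and 134029 in LP and 60830, 30236 and 90832 in LC. LPC overlapped LP and stood above LC, without a call (1.10, SE 0.38, limma adjusted p = 0.115), while LC was lower than LP (-1.56, SE 0.38, limma adjusted p = 0.0312).

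The other 5 abundant IDs showed no call of LPC against either parent. evm.model.Chr7.373 had 80044, 43802 and 60394 FPKM in LPC, 77096, 87978 and 88406 in LP and 81595, 32652 and 79337 in LC. evm.model.Chr1.19 had 10263, 16948 and 18601 FPKM in LPC, 12082, 8792 and 10029 in LP and 30407, 41800 and 15835 in LC, and was 1.41 higher in LC than in LP (SE 0.36, limma adjusted p = 0.0351). evm.model.Chr23.727 had 17110, 21837 and 17616 FPKM in LPC, 16984, 12236 and 15618 in LP and 10633, 4291 and 17581 in LC. In these 3, LPC overlapped at least 1 parent. evm.model.Chr2.508 had 11258, 15132 and 11087 FPKM in LPC, 10347, 7325 and 6796 in LP and 9749, 4128 and 12866 in LC. evm.model.Chr7.375 had 8167, 10458 and 10865 FPKM in LPC, 4332, 9573 and 20830 in LP and 1877, 8126 and 401 in LC. LPC overlapped LC for evm.model.Chr2.508 and LP for evm.model.Chr7.375. LPC libraries of evm.model.Chr7.375 stood above LC by 2.41, with an SE of 0.94.

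Tissue-enriched and broad lists were called against the mid-parent as follows. Of 705 liver-enriched IDs tested, 35 were higher and 26 lower in LPC (43 and 20 after scaling), 8.65% against 2.71% of all IDs, and their median difference was 0.136 above that of all IDs (0.181 after scaling). LPC values entered the choice of this list. With the list chosen without LPC liver, 30 of 699 were higher and 30 lower (38 and 23 after scaling), with a median 0.0629 above that of all (0.114 after scaling). With the list chosen from LP and LC liver only, 24 of 738 were higher and 33 lower (29 and 26 after scaling), with a median 0.0308 above that of all (0.0817 after scaling). The lists below were chosen with all liver libraries. Of 769 brain-enriched IDs tested, 4 were higher and 8 lower (6 and 5 after scaling), with a median -0.0488 from that of all. Of 63 muscle-enriched IDs tested, 0 were higher and 3 lower (0 and 2 after scaling), with a median 0.0212 above that of all, and -0.00512 after scaling. Of 400 broad IDs tested (at least 5 FPKM in each tissue and less than 2-fold apart), 10 were higher and 14 lower (14 and 4 after scaling), with a median 0.0739 above that of all. No test was run on any list, and the share called was larger among more abundant IDs. IDs with a mean of 1 to 5 FPKM were called in 1.48%, those of 20 to 100 in 5.46%, those of 100 to 1000 in 10.3% and those of 1000 or more in 10.6%. The 142 IDs of 1000 FPKM or more had 1 higher and 14 lower (1 and 6 after scaling) and a median of -0.41 (-0.17 after scaling), against -0.19 (-0.01) over all IDs.

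Called IDs were spread over the 24 chromosome numbers that EVM names carry. The share called against the mid-parent ran from 0.935% of 321 IDs on number 22 to 3.62% of 414 on number 17. IDs above both parents numbered 5 on number 16, 4 each on 1, 7 and 9, and 3 or fewer elsewhere. IDs below both numbered at most 4 on any number.

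The counts of IDs outside both parents differed between tissues, without a test of the counts. In muscle, limma called 1674 of 10595 IDs tested above both parents and 66 below both in LPC, or 769 and 191 after median-ratio scaling. In brain it called 2 and 0 of 17494, against 51 and 53 of 12383 in liver. Of the 51 IDs above both in liver, 18 were tested in muscle and 6 were above both there as well, which is 33.3% of the 18 and 0.401% of the 1496 muscle IDs tested in liver. Of all IDs tested in both tissues, 16.7% were above both in muscle. Of the 53 IDs below both in liver, 38 were tested in muscle and 0 were below both there, against 0.369% of all IDs tested in both tissues. Brain had too few such IDs for any overlap to be read. The departure of LPC from the mid-parent differed between liver and muscle in 23.6% of 19508 IDs, 255 higher and 4343 lower in liver, or in 8.49% after scaling (683 and 973). Between liver and brain it differed in 3.07%, 172 higher and 427 lower, or in 2.09% after scaling (239 and 168). These counts come from a fit that treated libraries of different tissues as independent.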

How the data were processed

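Total RNA was extracted with TRIzol, enriched for poly(A) RNA and sequenced, per the labels' protocols. The authors deposited FPKM values per gene ID for each library. Reads were cleaned with fastp, per the submitters' processing notes. No source used here names the aligner, quantification tool, genome build or annotation. FPKM keeps no depth, so no counting error could be set beside a value. No library pair held identical values. From the FPKM values, IDs with at least 1 in at least 3 of the 9 libraries were kept, and log2(FPKM + 1) was fitted with limma 3.58.1 (R 4.3.3) as 1 mean per group with a mean-variance trend, 2-sided, with Benjamini-Hochberg adjustment over 12383 IDs. The procedure was tested on simulated data with changes put into LPC only. Of changes of 1 log2 unit, a fraction of 0.288 was recovered against LP and 0.258 against LC. At 2 log2 units these were 0.701 and 0.731. LP and LC were simulated without a difference, so recovery of parental differences, and of the classes that need them, was not tested. Shares of the FPKM sum were compared by exact permutation tests. The mid-parent was the mean of the LP and LC log2 means. The linear mid-parent was log2 of the average of those means turned back to FPKM + 1, with a delta-method error on the limma variance. The members and lists were chosen with earlier results of these data known. Named IDs were the 5 highest and 5 lowest per comparison and the 8 above and 8 below both parents, called in the same direction on both scales, with a group mean of at least 5 FPKM and no overlap of the libraries compared. They also included the 5 LP-like, 5 LC-like and 5 between IDs with the largest parental difference and the 10 most abundant IDs. Alternatives were other scalings, filters, pseudocounts, fits and mid-parents, and leaving out each library.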

Additional observations from a re-analysis of the deposited data

Results flagged for a closer look

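The departure of LPC from the mid-parent was compared between tissues in 1 limma fit over 27 libraries and 19508 IDs, with Benjamini-Hochberg adjustment. The fit treated the 27 libraries as independent. The labels used here do not say whether libraries of different tissues came from the same fish. Among 48 named IDs, 33 differed between liver and muscle and 28 between liver and brain. Over all IDs, 23.6% and 3.07% did. Most of the named IDs were chosen for large differences in liver, and the same liver values enter this test. The outcome was thus largely set by that choice, and the counts are no evidence that a departure is particular to liver. The 25 results given here are those of IDs with a mean of at least 1 FPKM in at least 1 group of the other tissue. Each is the log2 departure in liver minus that in the other tissue. The median of that difference over all IDs was -0.33 against muscle and -0.19 against brain as deposited, and 0.02 and -0.01 after median-ratio scaling.

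evm.model.Chr11.367, at 0 in LPC liver, differed most: -6.57 against muscle (limma adjusted p = 1.83e-08) and -5.99 against brain (limma adjusted p = 3.73e-07), with a departure of -5.97 in liver, 0.60 in muscle and 0.02 in brain. BGI_novel_G000248, also near 0 in LPC liver, differed by -2.61 against muscle (limma adjusted p = 0.000108) and -3.52 against brain (limma adjusted p = 4.39e-05). Both calls of both IDs held after scaling.

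Of the IDs above both parents in liver, evm.model.Chr2.486 differed by 4.14 against muscle (limma adjusted p = 0.000446) and 4.76 against brain (limma adjusted p = 0.00123), and evm.model.Chr7.580 by 4.09 against muscle (limma adjusted p = 1.7e-05). Against brain, evm.model.Chr9.61 differed by 5.30, evm.model.Chr7.1059 by 4.88, evm.model.Chr15.450 by 4.18 and evm.model.Chr16.797 by 3.73, with limma adjusted p from 3.17e-05 to 0.00148. Departures of these IDs in the other tissue lay between -0.41 and 0.73. evm.model.Chr2.486 had means of 1.07, 0.337 and 0.16 FPKM in LPC, LP and LC muscle. evm.model.Chr7.1059 had means of 0.457, 1 and 0.557 FPKM in LPC, LP and LC brain. Each was thus low in that tissue in all groups.

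Of the IDs below both, evm.model.Chr7.264 differed by -3.07 against muscle (limma adjusted p = 0.000176), evm.model.Chr22.324 by -1.97 against muscle (0.00137) and -2.69 against brain (0.000821), evm.model.Chr23.734 by -2.76 against brain (0.021) and BGI_novel_G000569 by -4.36 against brain (0.00619). BGI_novel_G000569 was below both only as deposited, since in liver its difference from LC (limma adjusted p = 0.0467) was not called after scaling (0.0680). evm.model.Chr4.25 differed by -3.38 against muscle (limma adjusted p = 0.00855, 0.0893 after scaling). In muscle, evm.model.Chr7.264 had means of 0.0833 FPKM in LPC, 0.0867 in LP and 1.64 in LC (0 to 4.91). Its limma adjusted p there was 0.04475 after scaling. Means were at most 1.31 FPKM for evm.model.Chr22.324 in muscle and 1.22 for BGI_novel_G000569 in brain. Values this low leave a lower departure little room on the log2(FPKM + 1) scale. The differences of evm.model.Chr7.264, evm.model.Chr22.324 and BGI_novel_G000569 thus mostly restate the departure in liver. The other IDs were less low. evm.model.Chr23.734 had brain means of 19.3 FPKM in LPC, 11.8 in LP and 15.7 in LC. evm.model.Chr4.25 had muscle means of 5.07, 4.39 and 9.22 FPKM.

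IDs that 1 parent lacked or nearly lacked in liver also differed. BGI_novel_G000372 did so by 4.03 against muscle (limma adjusted p = 0.000256) and BGI_novel_G002270 by 5.82 against brain (0.00121). BGI_novel_G001591 differed by -3.32 against muscle (limma adjusted p = 0.0183) and evm.model.Chr9.461.2 by -2.79 against brain (0.0463). evm.model.Chr23.828 differed by -2.38 against muscle (limma adjusted p = 0.000688) and by -1.81 against brain (0.0379, but 0.419 after scaling). BGI_novel_G000280 differed by -2.25 against muscle (limma adjusted p = 0.048, but 0.218 after scaling) and BGI_novel_G001511 by -1.63 against brain (0.0157, but 0.488 after scaling). No pattern across these IDs was tested.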

How the results depend on the processing

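Scaling moved the counts of lower IDs most. IDs lower than LP numbered 228 with median-ratio scaling and 194 with a common median. IDs lower than LC numbered 334 with median-ratio scaling, 334 with quantile normalization and 321 with a common median. Against the mid-parent, median-ratio scaling gave 215 higher and 124 lower, and a common median 113 lower. IDs below both parents numbered 19, 19 and 15 under median-ratio, quantile and common-median scaling. Without the filter on low values, of 21615 IDs tested there were 406 lower than LC, 89 higher and 80 lower than the mid-parent and 21 below both. With a filter at 5 FPKM, 927 of 6161 IDs tested were called between LC and LP, against 1505 of 12383. A fit on 12 liver libraries gave 610 lower than LP, 952 lower than LC, 210 higher and 500 lower than the mid-parent and 91 below both. The linear mid-parent gave 308 lower. The place of LPC between the parents was -0.127 with median-ratio scaling, -0.216 on the FPKM scale and -0.114 over IDs at least 4-fold apart. The difference in share was -0.161 percentage points for the single most abundant ID and 2.88 for the top 100 (exact permutation p = 0.0476). For liver-enriched IDs, under alternatives chosen after seeing the data, it was 3.26 without the 2 IDs picked for their excess in LPC. It was -0.00132 without the 10 most abundant, which pools 3.20 from LP and -3.20 from LC. The median difference of the liver-enriched list from all IDs was 0.0629 with the list chosen without LPC liver and 0.0308 from LP and LC liver only, also added after seeing the data. The difference of evm.model.Chr1.19 from the mid-parent (-0.17, not called) changed sign, to 0.0709 with median-ratio scaling and 0.0201 with a common median, and ranged over -0.368 to 0.0911 with 1 library left out, the last without LPC 1. The cause of these changes was not tested.

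Leaving out 1 library at a time, IDs higher than LP ranged over 73 to 262 and lower 86 to 545, higher than LC 127 to 337 and lower 174 to 784, higher than the mid-parent 46 to 247 and lower 21 to 492, above both 25 to 90, below both 6 to 116, and called between LC and LP 850 to 1380. The place ranged over -0.276 to -0.0434, the difference in share of the top 10 over 7.61 to 11.4 (11.4 without LP 2, exact permutation p = 0.0179) and that of liver-enriched IDs over 10.3 to 12.6. Of 57 called results of named IDs, at least 56 held under every scaling, the other pseudocount, the filter at 5 FPKM, 12 libraries and no trend, 46 held without a filter, and 40 to 57 held when 1 library was left out. Most named IDs had to be called both as deposited and after median-ratio scaling, so their hold under scaling was largely fixed by that choice. It does not carry over to all IDs, of which those below both fell from 53 to 19 with median-ratio scaling. None of the 57 changed sign.

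Replicate numbers did not pair the libraries: deviations from the group mean correlated at -0.11 to 0.12 for equal numbers and -0.17 to 0.16 for unequal ones. With the replicate block, IDs lower than LP fell to 230, against 365 without it, the other counts stayed within 1.5 times, and 53 of the 57 called results held. The 4 lost were BGI_novel_G000772 against LP (limma adjusted p = 0.0787) and, against the mid-parent, evm.model.Chr4.24 (0.0706), evm.model.Chr4.25 (0.0641) and BGI_novel_G000569 (0.0514).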

Other observations

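3 consecutive names, evm.model.Chr16.191, evm.model.Chr16.192 and evm.model.Chr16.193, chosen after their values were seen, were all among the named IDs, and each stood higher in every LPC library than in every LC library. evm.model.Chr16.191 and evm.model.Chr16.192 were also high in LP liver, while evm.model.Chr16.193 was not. Liver of LCP had 14.4, 24.6 and 11.3 FPKM of evm.model.Chr16.191, against 224 to 730 in LPC. Of evm.model.Chr16.192 it had 449, 199 and 89.5 FPKM, which overlapped LPC (347 to 4201) and stood above every LC library. For evm.model.Chr16.193 the LCP values were 15.01, 3.57 and 4.17 FPKM, against 214 to 1107 in LPC. Whether consecutive names lie side by side in the genome was not analysed here. Over 4981 pairs of consecutive names tested, 1 pair was higher than the mid-parent in both members (evm.model.Chr3.804 and evm.model.Chr3.805) and 2 were lower in both (evm.model.Chr2.975 with evm.model.Chr2.976, and evm.model.Chr4.24 with evm.model.Chr4.25).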
